A study of Mus musculus with 15 samples.

Results

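The genes described here are the RNA-binding proteins Lin28 and Lin28b, which block the maturation of the let-7 microRNAs, together with 6 genes known as let-7 targets among other roles, Hmga2, Igf2bp1, Igf2bp2, Igf2bp3, Trim71 and Arid3a. They were chosen by name from the 28876 genes of the table, and all 8 were among the 18553 genes that reached 0.5 RPM (reads-per-million, the total being all reads that were assigned to a gene) in at least 1 library. RNA-seq had been made from the aorta-gonad-mesonephros (AGM) region of C57BL/6 mouse embryos, a site of hematopoietic stem cell maturation, to follow how this region changes in time and from its dorsal to its ventral side. There were 5 groups of 3 libraries, all of untreated tissue of the same strain: the dorsal part at E9.5 (E9.5 AoD), the ventral part at E9.5 (E9.5 AoV), the same parts at E10.5 (E10.5 AoD and E10.5 AoV), and the urogenital ridges at E10.5 (E10.5 UGR). Each library held tissue of 15 to 34 embryos, and the 3 libraries of a group came from separate experiments.

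let-7 microRNAs accumulate as embryonic cells differentiate and reduce the stability and translation of messenger RNAs that carry matches to their seed. Lin28 and Lin28b bind let-7 precursors, often through a GGAG sequence in the loop of the hairpin, and recruit uridylating enzymes that mark the precursor for decay. The Lin28 messages carry let-7 matches themselves, so that each side of this pair limits the other. In blood development Lin28b is known for its high level in fetal as opposed to adult progenitors, and Hmga2, the Igf2bp genes and Arid3a for acting downstream of it.

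The seed of let-7 pairs with a sequence that all of these targets share. In RefSeq mature microRNAs (GRCm38.p6), 11 mouse sequences carried the same bases 2 to 8: let-7a to let-7g, let-7i, let-7k, miR-98 and miR-1961. These examples are shown with the seed in capitals, since it is the part that pairs with the sites listed after them.
let-7a-5p: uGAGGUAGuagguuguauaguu
let-7d-5p: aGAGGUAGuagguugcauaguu
let-7g-5p: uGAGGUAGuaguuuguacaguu
miR-98-5p: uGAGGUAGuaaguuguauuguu

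Of 11 let-7 and miR-98 hairpins with both arms listed, 8 held GGAG between the arms. The loop of let-7a-1 holds it and that of let-7c-2 does not, with GGAG in capitals.
let-7a-1 loop: uuagggucacacccaccacugGGAGauaa
let-7c-2 loop: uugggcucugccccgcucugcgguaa

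Every one of the 8 genes held at least 1 full let-7 match, CTACCTCA, in its longest annotated 3′ UTR. This match is the complement of seed bases 2 to 8 followed by an A. Windows of 22 bases that end in the match are shown on the strand of the message, with the match in capitals, for each gene (build NCBIM37). All lie in exons, within the 3′ UTR. The Lin28 windows lie on chr4:133561104-133561125 and chr4:133560466-133560487 (minus strand), and the Lin28b window on chr10:45100828-45100849 (minus strand), where the match starts at base 36 of the UTR.
Lin28, base 909 of the UTR: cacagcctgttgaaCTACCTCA
Lin28, base 1547 of the UTR: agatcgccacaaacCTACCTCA
Lin28b: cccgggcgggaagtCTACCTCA

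The windows of the target genes lie on chr10:119801280-119801301 (Hmga2, minus), chr11:95823092-95823113 (Igf2bp1, minus), chr16:22059546-22059567 (Igf2bp2, minus), chr6:49036786-49036807 (Igf2bp3, minus), chr9:114421590-114421611 and chr9:114421494-114421515 (Trim71, minus) and chr10:79416641-79416662 (Arid3a, plus). Of the 3 full matches of Igf2bp1, only the first, at base 1715 of the UTR, is shown.
Hmga2: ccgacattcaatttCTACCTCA
Igf2bp1: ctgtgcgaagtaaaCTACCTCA
Igf2bp2: cacacaaataaaagCTACCTCA
Igf2bp3: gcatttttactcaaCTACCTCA
Trim71, base 166 of the UTR: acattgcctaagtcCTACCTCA
Trim71, base 262 of the UTR: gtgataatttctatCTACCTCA
Arid3a: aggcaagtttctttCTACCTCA

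Outside the 8 shared letters these windows differ from each other. Counting also the shorter matches CTACCTC and TACCTCA, each only where it was not part of the full match and only on the strand of the message, Hmga2 had 7 matches in 3014 bases of 3′ UTR, Lin28b 5 in 4445 bases and Igf2bp1 5 in 6337 bases. Arid3a had 4 matches, Trim71 3, Lin28 and Igf2bp2 2 each, and Igf2bp3 1. Among all 19381 genes with a 3′ UTR of at least 50 bases, 14.4% had a match of any of the 3 kinds and 3.11% had the full match. Of UTRs of like length (0.8 to 1.25 times), 0.141% had as many matches as Hmga2, 0.198% as many as Trim71, and 24.1% as many as Igf2bp3. The share of UTRs of like length with at least 1 full match lay between 3.63% (for Trim71) and 13.2% (for Igf2bp1). For a match of any kind it lay between 16.3% and 50.3%, for the same 2 genes. A match is only a run of letters, and the genes are known as targets partly for these matches.

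**Figure D1:**
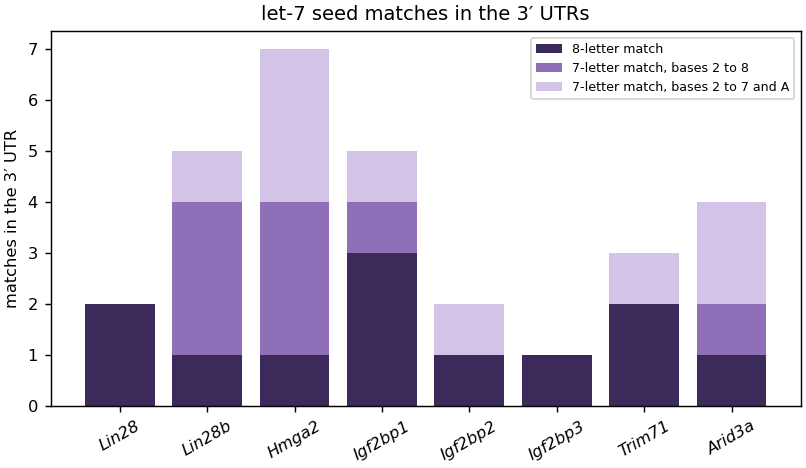
Number of let-7 seed matches in the longest annotated 3′ UTR of each gene (vertical axis, matches; horizontal axis, genes), split by kind of match. Hmga2 had 7 matches, 1 of them full, whereas Igf2bp1 had 3 full matches among 5, and Igf2bp3 had a single full match.

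Depth, worked out from the value of a single read, lay between 33.8 and 48.5 megareads assigned to genes per library, so that 3 reads are worth at most 0.0888 RPM, far below the level of any of the 8 genes. The dissected parts differed in the tissue around the aorta. Endothelial markers were present in all libraries (10 of 10 genes at 0.5 RPM or more in each group), summing to 362 to 489 RPM in E9.5 AoD and 570 to 839 RPM elsewhere. Summed neural tube markers ranged from 269 to 530 RPM in E9.5 AoD, 52.7 to 93.4 RPM in E10.5 AoD and 6.69 to 24.3 RPM in the other groups, somite markers were at 572 to 824 RPM in the AoD groups against 41.1 to 92.7 RPM in the AoV groups, and gut endoderm and liver markers were at 657 to 1012 RPM in E9.5 AoV but at most 63.1 RPM elsewhere. In these bulk samples, fewer cells of a type and less RNA per cell cannot be told apart.

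Lin28 (Lin28a; ENSMUSG00000050966, chr4:133559245-133574756, minus strand) fell on both sides of the aorta between E9.5 and E10.5, and more so dorsally. Its level was 282, 283 and 300 RPM in the libraries of E9.5 AoD and 289, 314 and 324 RPM in those of E9.5 AoV. At E10.5 it was 41.6, 35.6 and 57.1 RPM in AoD and 110, 103 and 140 RPM in AoV. All 6 E10.5 libraries of the aorta lay below all 6 E9.5 libraries, and the E10.5 AoD and E10.5 AoV libraries did not overlap. The difference of log2(RPM + 0.1) from E9.5 was -2.71 ± 0.143 (SE; adjusted p = 1.91e-09) in AoD, or 0.153 times the E9.5 level, and -1.40 ± 0.143 (SE; adjusted p = 1.61e-06) in AoV, or 0.378 times.

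The fall of Lin28 differed between the sides by 1.31 ± 0.202 on the log2 scale (SE; adjusted p = 0.000195 for the interaction of stage and position). At E9.5 Lin28 did not differ detectably between AoV and AoD, with a log2 difference of 0.10 and a 95% interval from -0.21 to 0.40. At E10.5 it was 2.65 times as high in AoV as in AoD (adjusted p = 1.74e-06). The urogenital ridges, with 105, 92.3 and 116 RPM, overlapped E10.5 AoV (adjusted p = 0.433, 95% interval of the log2 difference from -0.14 to 0.47) and lay above E10.5 AoD (log2 difference of AoD from UGR -1.24, adjusted p = 5.43e-06). The order of levels in this fit was therefore E9.5 AoV and E9.5 AoD, not separated, then E10.5 AoV and E10.5 UGR, not separated, then E10.5 AoD. With the replicate number within each stage as a block, added after seeing the data, Lin28 passed as higher in E10.5 AoV than in UGR (limma, adjusted p = 0.0353).

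Lin28 is expressed by primordial germ cells and by posterior progenitors as well as more widely in the early embryo. Germ cell markers summed to 64.8 to 77.2 RPM in E9.5 AoV and 90.9 to 96.4 RPM in E10.5 AoV, against 24.5 to 27.2 RPM in E9.5 AoD, 31.2 to 31.4 RPM in E10.5 AoD and 38.0 to 41.6 RPM in UGR. Kit, which other cells also express, carried most of these sums and did not pass the test between the stages in AoV (61.5 ± 6.62 RPM at E9.5 and 59.2 ± 3.54 RPM at E10.5, SD, n = 3). Of the 8 germ cell markers tested, 7 passed the adjusted p as higher in E10.5 AoV than in E9.5 AoV. Of these, 4 were called, where 11% of all genes tested were called. Pou5f1 rose from 2.01 ± 0.221 to 14.7 ± 0.902 RPM, Dppa5a from 0.518 ± 0.130 to 6.65 ± 0.405 RPM and Dppa3 from 0.722 ± 0.358 to 4.65 ± 0.558 RPM, and Prdm14 by 2.14 on the log2 scale. In AoD 0 were called by limma, where 12.6% of all genes tested were called. There 2 passed the adjusted p as higher and 1 as lower, with 5 at an unadjusted p below 0.05.

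Most caudal progenitor markers were also lower at E10.5 on both sides. In AoV 8 of 10 were called lower at E10.5, where 11% of all genes tested were called. Their median log2 difference was -1.92, and their sum went from 43.4 to 53.7 RPM to 4.78 to 5.32 RPM. In AoD 8 were called lower and 1 higher, with a median of -3.33, where 12.6% of all genes tested were called. Among them Cdx2 went from 8.04 ± 2.78 to 0.142 ± 0.0570 RPM, Cdx4 from 7.07 ± 2.99 to 0.0412 ± 0.0141 RPM, below the level of 3 reads, and Nkx1-2 from 5.27 ± 1.90 to 0.159 ± 0.0272 RPM in AoD. The 1 gene called higher was T, a marker of notochord as well, from 15.4 ± 1.25 to 33.9 ± 4.69 RPM, which made up most of the summed level in E10.5 AoD (34.0 to 42.1 RPM, against 42.2 to 69.5 RPM in E9.5 AoD). Between E10.5 AoV and UGR, 4 of the 8 germ cell markers tested were called higher in AoV, where 7.57% of all genes tested were called. The part of germ cells and caudal progenitors in the Lin28 differences was not tested.

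Lin28b (ENSMUSG00000063804, chr10:45096426-45206201, minus strand), the paralogue that also blocks let-7 maturation, fell as well, from a dorsally higher start. It was at 181, 177 and 203 RPM in E9.5 AoD and at 120, 112 and 121 RPM in E9.5 AoV, without overlap. At E10.5 it was at 68.3, 62.7 and 73.7 RPM in AoD, 79.3, 73.1 and 76.2 RPM in AoV and 89.8, 83.0 and 83.4 RPM in UGR. The E10.5 libraries lay close together and all below E9.5.

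The log2 difference of Lin28b from E9.5 was -1.45 ± 0.0649 (SE; adjusted p = 5.33e-10) in AoD and -0.63 ± 0.0649 (SE; adjusted p = 1.93e-06) in AoV, the latter short of 2-fold. The fall again differed between the sides, by 0.83 (adjusted p = 1.02e-05). Unlike Lin28, however, Lin28b differed between the sides at E9.5 (AoV from AoD -0.67, adjusted p = 9.26e-07), whereas at E10.5 the difference of 0.16 did not pass the test (adjusted p = 0.0674, 95% interval from 0.02 to 0.30). With the replicate number as a block, the E10.5 difference did pass (limma, adjusted p = 0.0197). All 10 of 10 neural tube markers were called lower in E9.5 AoV than in E9.5 AoD, where 11.8% of all genes tested were called. Their part in the E9.5 difference of Lin28b was not tested.

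**Figure D2:**
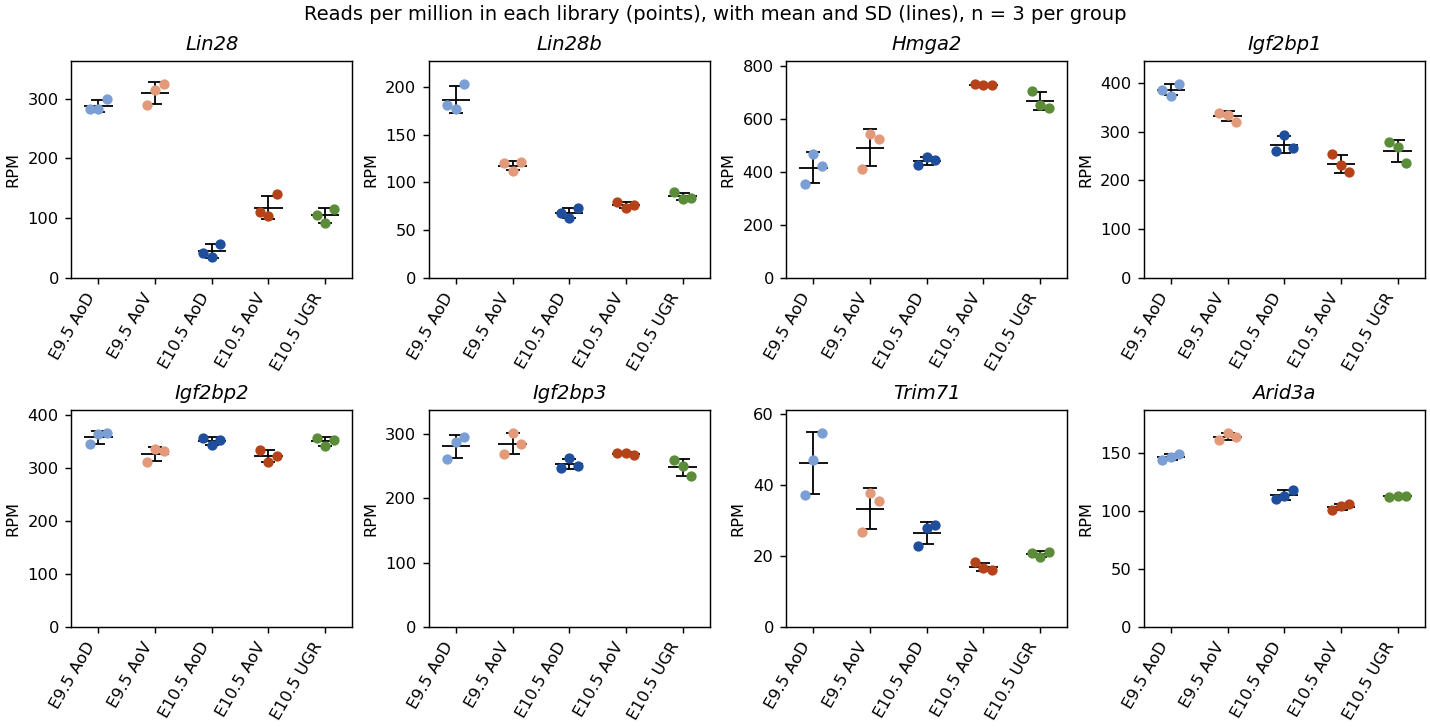
RPM (vertical axes, linear from 0) of each of the 8 genes in each library (points) by group (horizontal axes), with the mean and SD of 3 libraries (black lines). Lin28 fell from at least 282 RPM at E9.5 to at most 140 RPM at E10.5, Hmga2 was at 727 to 731 RPM in E10.5 AoV, and Igf2bp2 stayed between 311 and 366 RPM in every library.

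The balance of both paralogues thus changed with stage and with position. Lin28 RPM over Lin28b RPM was 1.55 ± 0.0616 (SD, n = 3) in E9.5 AoD, 2.63 ± 0.202 in E9.5 AoV, 0.651 ± 0.110 in E10.5 AoD, 1.54 ± 0.254 in E10.5 AoV and 1.22 ± 0.147 in UGR. E10.5 AoD was the only group in which all 3 libraries held more Lin28b reads than Lin28 reads. Over the aorta, the log2 ratio was lower by -1.02 at E10.5 than at E9.5 (exact permutation test, two-sided, 6 against 6 libraries, p = 0.0217, adjusted over 2 tests p = 0.0238), and higher by 1.01 in AoV than in AoD (exact permutation p = 0.0238, adjusted p = 0.0238). The stage test pooled both sides and the position test both stages. Both treated all libraries as independent, although the replicate numbers were taken to pair the E9.5 AoV and E9.5 AoD libraries. Since the Lin28b exons are longer, this ratio of reads is not a ratio of molecules. Per kilobase of exon, with the exons of all annotated transcripts joined, Lin28 was above Lin28b in every group. The values were 88.2 against 13.0 RPM per kilobase in E9.5 AoV and 12.8 against 7.53 in E10.5 AoD. The joined length was 9065 bases for Lin28b, whose transcript with the longest 3′ UTR held only 5353 windows of 50 bases. For Lin28 these were 3505 and 3456, so the gap between the genes depends on the length taken.

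**Figure D3:**
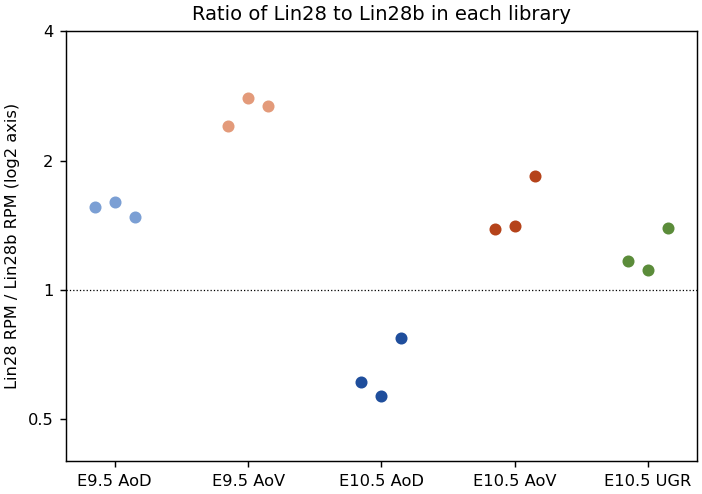
Lin28 RPM divided by Lin28b RPM (vertical axis, log2 scale) in each of the 15 libraries (points) by group (horizontal axis). The ratio lay between 2.41 and 2.80 in E9.5 AoV and between 0.568 and 0.775, below the dotted line at 1, in E10.5 AoD.

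By stage, the 8 genes did not all move in the same direction. Between E9.5 and E10.5 in AoV, 1 of the 8 was called, meaning an adjusted p below 0.05 and at least 2-fold (Lin28), where 11% of all genes tested were called. Of the 8, 6 passed the adjusted p alone, 5 lower and 1 higher, against 46% of all genes tested (22.4% lower and 23.6% higher). In AoD 2 of the 8 were called (Lin28 and Lin28b), against 12.6% of all genes tested, and 6 passed the adjusted p alone, all lower, against 57.8% of all genes tested (27.9% lower). The median log2 difference of the 8 was -0.56 in AoV and -0.43 in AoD, beside medians of -0.0016 and -0.0019 over all genes tested. These counts and medians are descriptions, with no test of the list.

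Hmga2 (ENSMUSG00000056758, chr10:119798331-119913525, minus strand), an architectural chromatin protein with the most let-7 matches of the 8, was the only one to pass the adjusted p as higher at E10.5 than at E9.5. It was at 411, 542 and 523 RPM in E9.5 AoV and at 731, 727 and 727 RPM in E10.5 AoV. In AoD it was at 354, 469 and 424 RPM at E9.5 and 426, 455 and 445 RPM at E10.5, with overlapping ranges. The ventral rise was 0.58 ± 0.0993 on the log2 scale (SE; adjusted p = 0.000252), or 1.49 times, whereas the dorsal difference was 0.10 (adjusted p = 0.418, 95% interval from -0.11 to 0.31). Stage and position interacted (0.48, adjusted p = 0.0191).

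At E10.5 Hmga2 was 1.65 times as high in AoV as in AoD (adjusted p = 3.77e-05), and UGR, with 706, 652 and 642 RPM, was above AoD as well (log2 difference of AoD from UGR -0.59, adjusted p = 0.000212). Somite markers were all (10 of 10) called lower in E10.5 AoV than in E10.5 AoD, where 10.1% of all genes tested were called. Urogenital ridge markers were at 350 to 383 RPM in E10.5 AoV, 735 to 784 RPM in UGR and 116 to 141 RPM in E10.5 AoD. The part of these tissues in the Hmga2 difference was not tested. A near copy of Hmga2 on chromosome 1 (97.1% identity over 1662 aligned bases) holds part of its sequence, and 23.4% of the 50-base windows of its transcript occur exactly elsewhere in the genome, so its reads could in part be assigned to the copy.

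Trim71 (ENSMUSG00000079259, chr9:114420393-114473487, minus strand), a ubiquitin ligase and RNA-binding protein of early development and a let-7 target from nematodes to mammals, had the lowest level of the 8 per kilobase of exon in every group. In RPM it was at 37.1, 47.1 and 54.5 RPM in E9.5 AoD and 26.7, 37.6 and 35.5 RPM in E9.5 AoV, and at 22.8, 27.8 and 28.8 RPM in E10.5 AoD, 18.2, 16.6 and 16.0 RPM in E10.5 AoV and 20.9, 19.6 and 21.1 RPM in UGR. It fell by 0.79 on the log2 scale in AoD (adjusted p = 0.000196) and by 0.96 in AoV (adjusted p = 5.33e-05), just short of 2-fold. Between the sides at E9.5 its log2 difference of AoV from AoD was -0.47, which did not pass without AoD replicate 3 (adjusted p = 0.0650) or AoV replicate 1 (0.0585). The fall did not differ detectably between the sides (interaction -0.16, adjusted p = 0.595, 95% interval from -0.58 to 0.26). Without replicate 1 of E9.5 AoV, or without replicate 1 of E10.5 AoV, the ventral difference was -1.11 and -1.01 and was called, making 2 of 8 genes called in that comparison.

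Arid3a (ENSMUSG00000019564, chr10:79389788-79417763, plus strand), a DNA-binding protein of B lymphocyte and early hematopoietic development, had the smallest standard error of the 8 (0.0363 on the log2 scale). It was at 144, 147 and 149 RPM in E9.5 AoD and 161, 167 and 164 RPM in E9.5 AoV, and at 110, 113 and 118 RPM in E10.5 AoD, 101, 104 and 106 RPM in E10.5 AoV and 112, 113 and 113 RPM in UGR. All E10.5 libraries lay below all E9.5 libraries. It fell by 0.66 on the log2 scale in AoV (adjusted p = 3.52e-09) and by 0.37 in AoD (adjusted p = 7.55e-07), with a larger fall ventrally (interaction -0.29, adjusted p = 0.000544). It was higher in AoV than in AoD at E9.5 (0.16, adjusted p = 0.00199) and lower at E10.5 (-0.13, adjusted p = 0.0101), the latter not passing without E10.5 AoD replicate 3 (0.0577) or E10.5 AoV replicate 1 (0.0534).

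The 3 Igf2bp genes, which encode RNA-binding proteins that stabilize and localize messages such as that of Igf2, were at high levels in every library. Igf2bp1 (ENSMUSG00000013415, chr11:95818477-95867254, minus strand) was at 386, 374 and 397 RPM in E9.5 AoD and 260, 293 and 266 RPM in E10.5 AoD, and at 339, 335 and 320 RPM in E9.5 AoV and 254, 232 and 217 RPM in E10.5 AoV. It fell by 0.50 on the log2 scale on both sides (adjusted p = 1.90e-05 in AoD and 2.81e-05 in AoV), and the interaction was -0.0023 with a 95% interval from -0.21 to 0.20. It was lower in AoV than in AoD by 0.22 at each stage (adjusted p = 0.0157 at E9.5 and 0.0196 at E10.5), but did not pass at E9.5 without replicate 3 of AoD or of AoV (adjusted p = 0.0549 and 0.0607), nor at E10.5 without AoD replicate 2 (0.0857) or AoV replicate 2 or 3 (0.0577 and 0.0950).

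Igf2bp2 (ENSMUSG00000033581, chr16:22059082-22163372, minus strand) was between 311 and 366 RPM in all 15 libraries. Its log2 difference from E9.5 was -0.03 in AoD (95% interval from -0.12 to 0.06) and -0.02 in AoV (from -0.11 to 0.08), and neither passed the test (adjusted p = 0.615 and 0.792). It was slightly lower in AoV than in AoD at E9.5 (-0.13, adjusted p = 0.0181) and at E10.5 (-0.12, adjusted p = 0.0359). These differences did not pass at E9.5 without AoD replicate 2 or 3 or AoV replicate 1 (adjusted p = 0.0561 to 0.0787), nor at E10.5 without AoD replicate 1 or 3 or AoV replicate 2 or 3 (0.0745 to 0.153). Igf2bp3 (ENSMUSG00000029814, chr6:49035220-49164953, minus strand) was between 234 and 301 RPM in all libraries. Its log2 difference from E9.5 was -0.15 in AoD (adjusted p = 0.0301), with overlapping ranges, and did not pass without E9.5 AoD replicate 2 or 3 or E10.5 AoD replicate 1 or 3 (adjusted p = 0.0731 to 0.122). Its difference of -0.08 in AoV did not pass (adjusted p = 0.261, 95% interval from -0.19 to 0.04). Its 3′ end shares 1531 exon bases with 2410003K15Rik on the opposite strand, and the library kit as described does not mark strand.

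**Figure D4:**
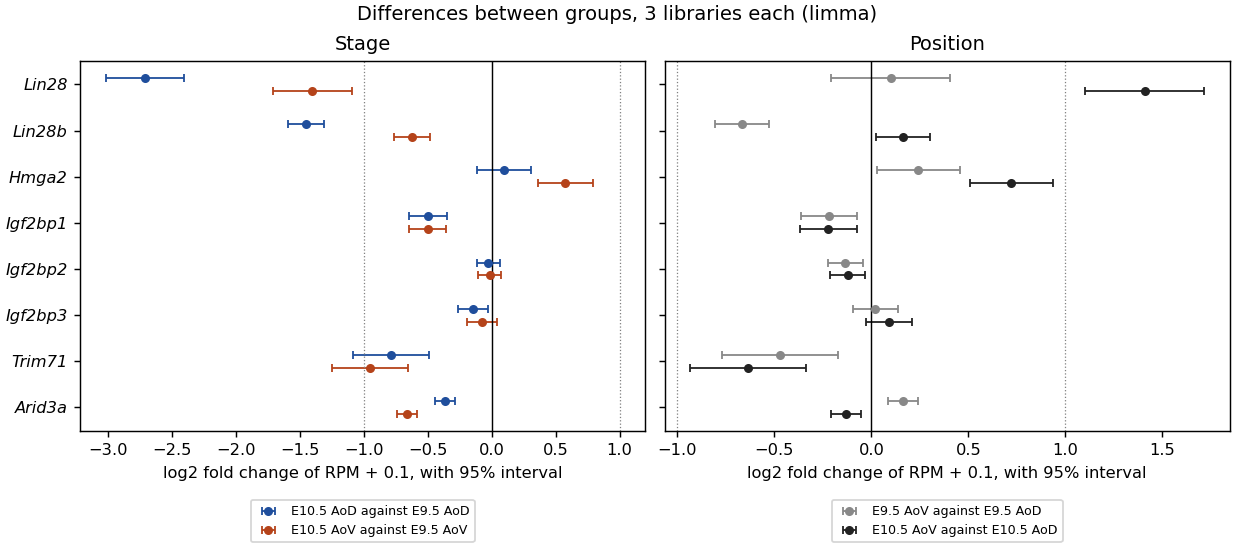
Differences of log2(RPM + 0.1) between groups (horizontal axes) for each gene (vertical axis), as points with 95% intervals from limma with 3 libraries per group, by stage (left) and by position (right), with dotted lines at 2-fold. Lin28 fell by 2.71 in AoD and by 1.40 in AoV, Hmga2 rose by 0.58 in AoV, and the differences of Igf2bp2 lay between -0.13 and -0.02 in all 4 comparisons.

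By position, Lin28 alone of the 8 genes was called between E10.5 AoV and E10.5 AoD, where 10.1% of all genes tested were called. Here 6 passed the adjusted p alone, against 35.5% of all genes tested. Lin28 and Hmga2 were higher in AoV, and Igf2bp1, Igf2bp2, Trim71 and Arid3a were lower. With the replicate number as a block, Lin28b passed as higher in E10.5 AoV as well (limma, adjusted p = 0.0197). Between E9.5 AoV and E9.5 AoD, limma called 0 of the 8, against 11.8% of all genes tested. Here 5 passed the adjusted p alone (Arid3a higher in AoV; Lin28b, Igf2bp1, Igf2bp2 and Trim71 lower), against 47.7% of all genes tested, and 6 had an unadjusted p below 0.05. The replicate numbers paired these libraries, and with the replicate number as a block Hmga2 passed as well (higher in AoV by 0.24, in 3 of 3 pairs, adjusted p = 0.0337 against 0.0578 without the block), which made 6. For the interaction 1 of 8 was called (Lin28), against 11% of all genes tested, and 4 passed the adjusted p alone, against 28.1%.

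Against the urogenital ridges, E10.5 AoV differed by less than 2-fold in all 8. How many passed the adjusted p depended on the fit. limma called 0, where 7.57% of all genes tested were called. Igf2bp2 and Arid3a were lower in AoV by 0.12 on the log2 scale (adjusted p = 0.0446 and 0.0215), the 2 genes that passed the adjusted p alone, against 29.1% of all genes tested, and 5 of the 8 had an unadjusted p below 0.05. Neither difference passed in every fit that left out a library: Igf2bp2 did not pass without E10.5 AoV replicate 2 or 3 or any 1 UGR library (adjusted p = 0.0513 to 0.178), and Arid3a did not without E10.5 AoV replicate 1 or 2 or UGR replicate 2 or 3 (0.0530 to 0.0959). E10.5 AoD differed from UGR in Lin28, the 1 gene called (11.3% of all genes tested were called), and was also lower in Lin28b (-0.33, adjusted p = 0.000931) and Hmga2, so that 3 passed the adjusted p alone, against 39.2% of all genes tested. These comparisons share the UGR libraries with each other and the aorta libraries with the comparisons above. Between E10.5 AoV and UGR, 5 genes passed the adjusted p alone in a fit of only the groups compared, and 5 with sample weights. Leaving out a library gave 0 to 3. With the replicate number within each stage as a block, added after seeing the data, all 8 genes passed the adjusted p alone between E10.5 AoV and UGR. The shares of all genes that passed in these fits were not counted, so these counts cannot be set beside the 29.1% of the main fit.

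Between genes, levels can be compared only per length. In RPM per kilobase of annotated exon, Lin28 led in E9.5 AoV with 88.2 ± 5.14 (SD, n = 3), followed without overlap by Hmga2 with 72.7 ± 10.45. Igf2bp3, with 65.6 ± 3.68, overlapped Hmga2. Igf2bp2 (45.8 ± 1.94), Igf2bp1 (34.2 ± 1.04), Arid3a (29.5 ± 0.539), Lin28b (13.0 ± 0.544) and Trim71 (6.41 ± 1.11) came next, none overlapping its neighbours. In E10.5 AoD Hmga2 led with 65.3 ± 2.18 RPM per kilobase, and Lin28 (12.8 ± 3.17) lay below the 3 Igf2bp genes and Arid3a (20.4 ± 0.727). The exon lengths came from a later annotation than the one the reads were counted on. They join all annotated transcripts of a gene, 6772 bases for Hmga2 and 7131 for Igf2bp2. The transcripts with the longest 3′ UTR of these 2 genes held only 3761 and 3850 windows of 50 bases. The order of the genes, with Lin28 first in E9.5 AoV, therefore depends on the length taken.

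The genes that make and destroy let-7 all changed by less than 2-fold. Of 20 listed genes of microRNA processing and turnover, all tested, limma called 0 between the stages in either part, beside 11% of all genes tested in AoV and 12.6% in AoD. On the adjusted p alone 4 were higher and 3 lower in AoV, beside 46% of all genes tested, with 9 at an unadjusted p below 0.05. In AoD 5 were higher and 6 lower, beside 57.8% of all genes tested, with 12 at an unadjusted p below 0.05. Their median log2 difference was 0.03 in AoV and 0.02 in AoD. Eif2c4 (Argonaute 4), which loads mature microRNAs, rose by 0.62 in AoD (from 3.39 ± 0.439 to 5.24 ± 0.0808 RPM, SD, n = 3; adjusted p = 0.000754) and by 0.57 in AoV (adjusted p = 0.00200). Xpo5, the nuclear exporter of precursor hairpins, fell by 0.58 in AoD (from 207 ± 7.21 to 138 ± 5.03 RPM, SD, n = 3; adjusted p = 2.63e-08) and by 0.30 in AoV (adjusted p = 3.02e-05). Rnasen (Drosha), the nuclear nuclease of the pathway, fell by 0.30 in AoD (adjusted p = 3.27e-05) and by 0.17 in AoV (adjusted p = 0.00479). Zcchc11, a uridylating enzyme recruited by Lin28, had log2 differences of 0.28 in AoD (adjusted p = 0.0304) and -0.12 in AoV (adjusted p = 0.381). These 4 genes were chosen after their values were seen.

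Mature let-7 is too short for this kind of library, so only its loci and host transcripts could be looked at. All 8 let-7 and miR-98 loci listed were at or near 0, the highest being let-7d with 0.0206 to 0.545 RPM. 2610203C20Rik, now named Mir100hg, is a long noncoding transcript whose locus contains let-7a-2. It rose from 0.141 ± 0.0452 RPM in E9.5 AoD (SD, n = 3) to 0.791 ± 0.145 RPM in E10.5 AoD and from 0.146 ± 0.0936 RPM in E9.5 AoV to 0.679 ± 0.151 RPM in E10.5 AoV. The ranges did not overlap on either side. The log2 difference was 1.89 in AoD (adjusted p = 2.55e-05) and 1.71 in AoV (adjusted p = 0.000100), at levels of few reads per library. Huwe1 and Wdr82, whose loci contain let-7f-2 with miR-98 and let-7g, were not called. Wdr82 rose by 0.28 in AoD (adjusted p = 9.64e-06) and by 0.23 in AoV (adjusted p = 8.68e-05), and Huwe1 fell by 0.53 in AoD (adjusted p = 0.0306).

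Of 22 other genes listed as let-7 targets, 4 were called lower and 0 higher in AoD, and 4 lower and 1 higher in AoV, where 12.6% and 11% of all genes tested were called. On the adjusted p alone 12 were lower on each side, beside 27.9% of all genes tested lower in AoD and 22.4% in AoV, with 3 higher in AoD and 2 in AoV. These counts rest on a chosen list and have no test. The medians were -0.20 in AoD and -0.24 in AoV. Nr6a1, an orphan nuclear receptor of trunk development, went from 84.7 to 108 RPM in E9.5 AoD to 17.9 to 21.2 RPM in E10.5 AoD, and from 50.2 to 53.0 RPM in E9.5 AoV to 14.1 to 17.5 RPM in E10.5 AoV. Its log2 differences were -2.27 (adjusted p = 4.87e-10) and -1.75 (adjusted p = 5.11e-09).

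Sall4, a zinc finger factor of pluripotent and germ cells, went from 88.2 to 107 RPM to 39.1 to 40.8 RPM in AoD, a log2 difference of -1.30 (adjusted p = 7.12e-09), and from 90.3 to 112 RPM to 20.3 to 22.9 RPM in AoV, a log2 difference of -2.23 (adjusted p = 6.67e-11). Sall4 thus fell more on the ventral side (interaction -0.94, adjusted p = 2.16e-05), where Lin28 fell less. Acvr1c, a type I receptor for Nodal and activin ligands, was the 1 gene called higher, from 0.214 to 0.348 RPM in E9.5 AoV to 1.35 to 2.33 RPM in E10.5 AoV (log2 difference 2.24, adjusted p = 9.23e-07).

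**Figure D5:**
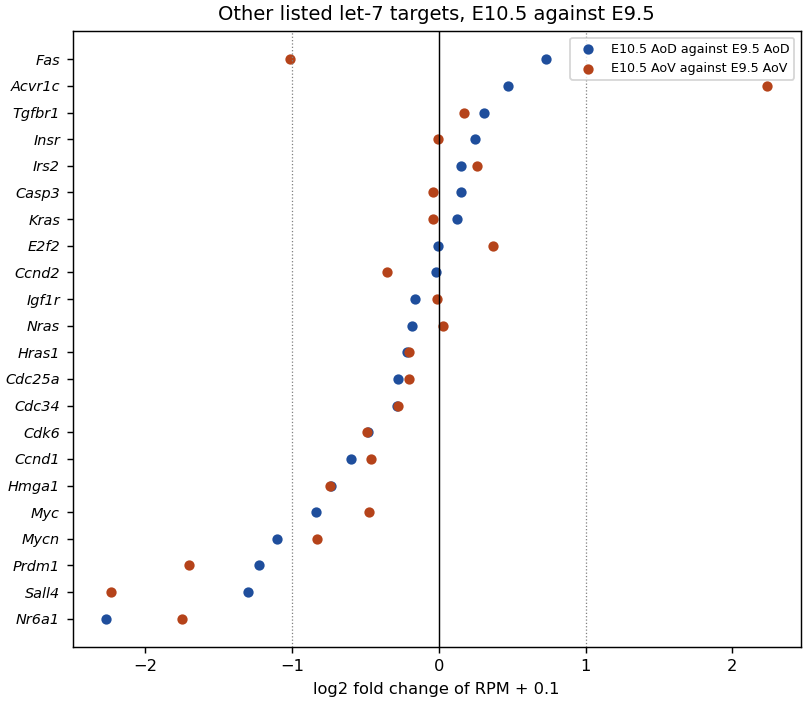
Differences of log2(RPM + 0.1) from E9.5 to E10.5 (horizontal axis) for 22 other listed let-7 targets (vertical axis) in AoD (blue) and AoV (orange), with dotted lines at 2-fold. Nr6a1, Sall4 and Prdm1 (-1.22 in AoD and -1.70 in AoV) lay beyond 2-fold lower on both sides, and Acvr1c at 2.24 in AoV.

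The profile closest to that of Lin28 over the 15 libraries, by the root mean square difference of centred log2(RPM + 0.1) values, was AL670680.1 at 0.0912, which stood at 12.9% to 16.4% of the Lin28 RPM in every library. AL670680.1 has no entry in the annotation used here, and whether it shares reads with Lin28 was not tested. Cdhr1 followed at 0.228 and H2-Q6 at 0.429. A copy of 572 aligned bases of Lin28 lies on chromosome 7 (98.1% identity), and 10.8% of the 50-base windows of the Lin28 transcript occur elsewhere in the genome. Closest to Lin28b were Rrp12 (0.124), Polr1b (0.135) and AL929211.1 (0.140), and closest to Trim71 were Nt5e (0.161), Chst7 (0.175) and 6430573F11Rik (0.178). Closest to Hmga2 were Lrrcc1 (0.0747), Myst4 (0.103) and Lclat1 (0.105), and closest to Arid3a were Hdgf (0.0772), Suv39h1 (0.0849) and Fam57a (0.0856). For Igf2bp1 they were Polq (0.0781), Eprs (0.0883) and Pkp4 (0.0886), for Igf2bp2 Nono (0.0294), AC116389.1 (0.0361) and Ptbp1 (0.0369), and for Igf2bp3 Canx (0.0491), Ubfd1 (0.0517) and Nckap1 (0.0552).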

How the data were processed

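TruSeq libraries were read as 50-base single ends, and the authors used TopHat with Bowtie 0.12.3 (build NCBI37/mm9) and counted reads over Ensembl genes in GeneProf, dividing reads that matched several genes in proportion to unique reads. The deposited values are RPM, rounded by the authors to 3 significant digits, without adjustment for length. The deposited table also holds 12 columns of the authors' DESeq comparisons (log2 fold changes and adjusted p-values), which were not used. Low values came out as whole reads (within 0.05 read) for only 68.0% to 69.6%, so counts were not recovered.

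limma 3.58.1 (R 4.3.3; trended empirical Bayes) was fitted to log2(RPM + 0.1) of the 18553 genes at 0.5 RPM or more in at least 1 library, with 1 mean for each of the 5 groups over all 15 libraries and Benjamini-Hochberg adjustment over all genes tested. A fold change on this scale understates low genes. Exact permutation tests used SciPy 1.17.1. Seed matches were searched in the longest 3′ UTR per gene, and copies with BLAST+ 2.17.0 (at least 95% identity). Members and lists were chosen with earlier results of these data known. Named list genes were, per list, up to 3 with the largest change among those called between the stages, besides exceptions stated and Prdm1 in a caption. The closest 3 profiles per gene were also named. P-values measure the spread between pools. Replicate numbers were tested for pairing by the correlation of deviations from group means. In E9.5 AoV against E9.5 AoD every pair was above 0.1 (0.190 to 0.452), so the numbers were taken to pair these libraries. In no other comparison did every pair pass this chosen cutoff. Of 18 same-number pairs, 14 correlated best with their own number, among them every pair of E10.5 AoV with E10.5 AoD and with UGR. The parts of a stage were dissected from the same region and may share embryos. Pairing at E10.5 is therefore possible, and the main fit left it out.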

Additional observations from a re-analysis of the deposited data

Results flagged for a closer look

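For 4 of the 8 genes the stage difference (E10.5 against E9.5) was unequal in the ventral and the dorsal part of the aorta, as tested by the interaction in limma. The ventral minus the dorsal log2 change was 1.31 for Lin28 (adjusted p = 0.000195), 0.83 for Lin28b (adjusted p = 1.02e-05), 0.48 for Hmga2 (adjusted p = 0.0191) and -0.29 for Arid3a (adjusted p = 0.000544). Both Lin28 genes fell on each side and fell less ventrally, Hmga2 rose ventrally while its dorsal difference did not pass the test, and Arid3a fell more ventrally. In these comparisons the dissected tissue differed too: gut endoderm and liver markers summed to 657 to 1012 RPM in E9.5 AoV and to 26.4 to 27.3 RPM in E10.5 AoV, and neural tube markers to 269 to 530 RPM in E9.5 AoD and 52.7 to 93.4 RPM in E10.5 AoD. Their part in the interactions was not tested.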

How the results depend on the processing

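Without the 2-fold threshold, 6 of the 8 genes passed in E10.5 AoV against E9.5 AoV, 6 in E10.5 AoD against E9.5 AoD, 6 in E10.5 AoV against E10.5 AoD, 5 in E9.5 AoV against E9.5 AoD, 2 in E10.5 AoV against UGR, 3 in E10.5 AoD against UGR and 4 in the interaction. Sample weights gave 2 called in E10.5 AoV against E9.5 AoV, with Trim71 at -1.03, and leaving out each library gave 1 to 2. In the other 6 comparisons leaving out each library kept the counts at 2, 1, 0, 0, 1 and 1, in the order above. The fits that left out a library held no replicate block, also between the E9.5 parts taken as paired. Other pseudocounts, filters, scalings and a fit of only the groups compared left the member counts at 2-fold as they were. On the adjusted p alone, the fit of only the groups compared gave 5 in E10.5 AoV against UGR, adding Lin28b (0.0224), Hmga2 (0.0440) and Trim71 (0.00855). It gave 3 in E9.5 AoV against E9.5 AoD, losing Igf2bp2 (0.0738) and Trim71 (0.0557). Sample weights gave 5 in E10.5 AoV against UGR. The scalings and the fit without a filter moved some of these counts as well. The replicate block, in all comparisons or separately within each stage (the latter added after seeing the data), changed no call of the 8 genes at 2-fold: it gave 0 in E9.5 AoV against E9.5 AoD, 1 in E10.5 AoV against E9.5 AoV and 2 in E10.5 AoD against E9.5 AoD. On the adjusted p alone the block in all comparisons added Hmga2 between the sides at E9.5 (0.0337), Lin28b in E10.5 AoV against E10.5 AoD (0.0197) and against UGR (0.0218) and Trim71 in E10.5 AoD against UGR (0.0274). The block within each stage added these 4 as well (0.000241, 0.0118, 0.0128 and 0.00449), and Hmga2 in E10.5 AoD against E9.5 AoD (0.0467). In E10.5 AoV against UGR it gave 8 of 8, adding also Lin28 (0.0353), Hmga2 (0.0219), Igf2bp1 (0.0423), Igf2bp3 (0.0204) and Trim71 (0.0231). The share of all genes that passed in that fit was not counted. Of 18 same-number pairs, 10 correlated above 0.1. On the adjusted p alone, the stage differences of Lin28, Lin28b, Igf2bp1, Trim71 and Arid3a on both sides, that of Hmga2 in AoV and the 4 interactions passed under every alternative run, whereas Igf2bp3 in AoD, Igf2bp1, Igf2bp2, Trim71 and Arid3a between the sides and Igf2bp2 and Arid3a against UGR were lost under some. Values that changed sign were all uncalled: the interaction of Igf2bp1 was 0.0022 with median-ratio scaling, 0.0783 with sample weights and -0.0619 to 0.0516 when leaving out each library, and that of Igf2bp2 was -0.0521 with quantile normalization, -0.0093 with weights and -0.0243 to 0.0378 when leaving out each library. Igf2bp2 in AoD between the stages was 0.0426 with quantile normalization. Leaving out each library, Igf2bp2 in AoV between the stages ranged from -0.0511 to 0.0109, Hmga2 in AoD from -0.0133 to 0.1896, and Igf2bp3 between the sides at E9.5 from -0.0314 to 0.0617. In E10.5 AoD against UGR, Igf2bp1 ranged from -0.0017 to 0.1195, Igf2bp2 from -0.0178 to 0.0172, Igf2bp3 from -0.0096 to 0.0663 and Arid3a from -0.0151 to 0.0355. The cause was not tested. With a pseudocount of 1 RPM the calls over all genes fell to 1104 in E10.5 AoV against E9.5 AoV (2046 with 0.1 RPM), 1281 in E10.5 AoD against E9.5 AoD (2337), 1020 in E10.5 AoV against E10.5 AoD (1874), 1196 in E9.5 AoV against E9.5 AoD (2187), 735 in E10.5 AoV against UGR (1404), 1143 in E10.5 AoD against UGR (2100) and 1174 in the interaction (2044); without the 2-fold threshold they were 8537, 10730, 6587, 8846, 5405, 7282 and 5214. Depth does not limit the 8 genes, but for 2610203C20Rik and Acvr1c it limits the fold changes.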

Other observations

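Genes were grouped by let-7 matches in their 3′ UTR, a grouping chosen after seeing the data and given without a test. Among 14686 tested genes with a 3′ UTR, the 2010 with 1 match had a median log2 difference between the stages of 0.02 in AoV and 0.04 in AoD, and the 80 with 3 or more matches had -0.02 and -0.09, beside 0.01 and 0.03 over all of them. The 330 with 2 matches had 0.03 on each side. The 537 with at least 1 full match, a class that holds all 8 genes, had 0.008 in AoV and 0.03 in AoD. The 25 genes with 2 or more full matches had medians of -0.25 in AoV and -0.27 in AoD, with 4 called lower and 1 higher in AoV and 3 lower and 2 higher in AoD. That is 16% lower and 4% higher in AoV, beside 5.75% and 6.69% of all 14686, and 12% lower and 8% higher in AoD, beside 4.12% and 9.92%. Without Lin28, Igf2bp1 and Trim71, which are among them, the remaining 22 had medians of -0.17 and -0.21. Of these 22, 3 were called lower and 1 higher in AoV (13.6% and 4.55%), and 2 lower and 2 higher in AoD (9.09% each). Their 3′ UTRs were longer, with a median of 3006 bases against 1163 over all.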
